A study of Mus musculus with 8 samples.

Results

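A set of 35 genes that serve the response to low oxygen and the breakdown of glucose was examined in rib chondrocytes of mouse embryos. The members came from a given list, in 3 classes: 6 genes of the HIF pathway, 15 of glycolytic enzymes and 14 of HIF targets, the glucose transporters among them. A probe set is a group of short probes on the array that together report 1 transcript, and a member was read from the brightest probe set annotated to its symbol alone, by the mean over all arrays. Of the 35 members, 32 had such a probe set, out of 18194 genes that had one, and all 32 were bright enough to be tested. Eno1 and Gpi1, the enzymes enolase and glucose-6-phosphate isomerase, had no probe set named for them here, and Bnip3l, a mitophagy receptor, shared its 3 probe sets with a pseudogene and was not used. Gapdh was read from the manufacturer's control probe sets, which were the only ones annotated to it alone. The 3 that it shared with other genes were not used.

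The samples were primary chondrocytes of FVB embryos at E18.5, freed from dissected rib cages with collagenase and trypsin and strained through a 70 micrometre mesh. Embryos of 4 litters were grouped by genotype, which gave 4 pools labelled Hoxd4 transgenic and 4 pools labelled wild type, the controls, with 1 pool of each genotype per litter and 1 array per pool. Hoxd4 is a homeobox transcription factor that takes part in patterning the vertebral column, and the study asked what its overexpression does to chondrocyte transcripts. What promoter drives the transgene, and how many embryos a pool held, was not given in the sources used here, so p-values measure the spread between pools.

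Cartilage has no blood vessels, and its cells live at low oxygen. When oxygen is present, prolyl hydroxylases mark the HIF alpha subunits and the VHL protein sends them to degradation. When oxygen is scarce the alpha subunits persist, pair with ARNT and switch on genes for glucose uptake, glycolysis, vessel growth and matrix hydroxylation, and in the growth plate chondrocytes need HIF-1 alpha to survive and to build matrix.

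The deposited values were MAS5 signals, which are linear brightness values that can be compared between arrays for 1 probe set but not between probe sets. They were scaled alike, with a trimmed mean of 500 on each array, and the median signal lay between 101 and 115. Of 45050 probe sets considered, 22525 had a mean signal above 106 and were tested with limma on log2(signal + 32). Chondrocyte markers were bright in every pool: the summed signal of 10 of them was 285001 to 312987 in pools labelled transgenic and 276194 to 301388 in control pools. The genotype check was weaker. The brighter of the probe sets annotated to Hoxd4, which is annotated to Hoxd3 as well, read 94.1, 415, 172 and 13.0 in pools labelled transgenic of litters 1 to 4, against 27.3, 42.6, 4.10 and 256 in control pools. It was higher in the pool labelled transgenic in 3 litters and lower in litter 4, so the direction of every genotype comparison below rests on the labels, and the member count and class medians are also given without litter 4.

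No member passed the test between genotypes. At an adjusted p under 0.05 limma called 0 of 32 members, on a background of 0% of all tested probe sets, and at an unadjusted p under 0.05 it also called 0 of 32, on a background of 3.29%. Of the members 15 were higher and 17 lower in pools labelled transgenic, where 51.2% of all tested probe sets were higher. The median log2 difference of the members was -0.02, beside 0.00287 over all tested probe sets. The arrays of the genotypes overlapped in each of the 32 members, on a background of 2.27% of probe sets without overlap. The 95% interval lay within a 1.5-fold change either way in 30 of the 32, all but Adm and Car9, beside 19268 of the 22525 tested. Without litter 4, 0 of 32 members had an unadjusted limma p under 0.05, with 11 higher and 21 lower, and of the members given by array Egln1, Vegfa and Gapdh turned sign, to log2 differences of 0.02, -0.0034 and -0.02. Leaving out arrays moved the count of higher members. It was 7 without the litter 1 pool labelled transgenic, 8 without the litter 4 control pool and 9 without litter 2. Without the litter 1 control pool it was 22, with 10 members lower.

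**Figure D1:**
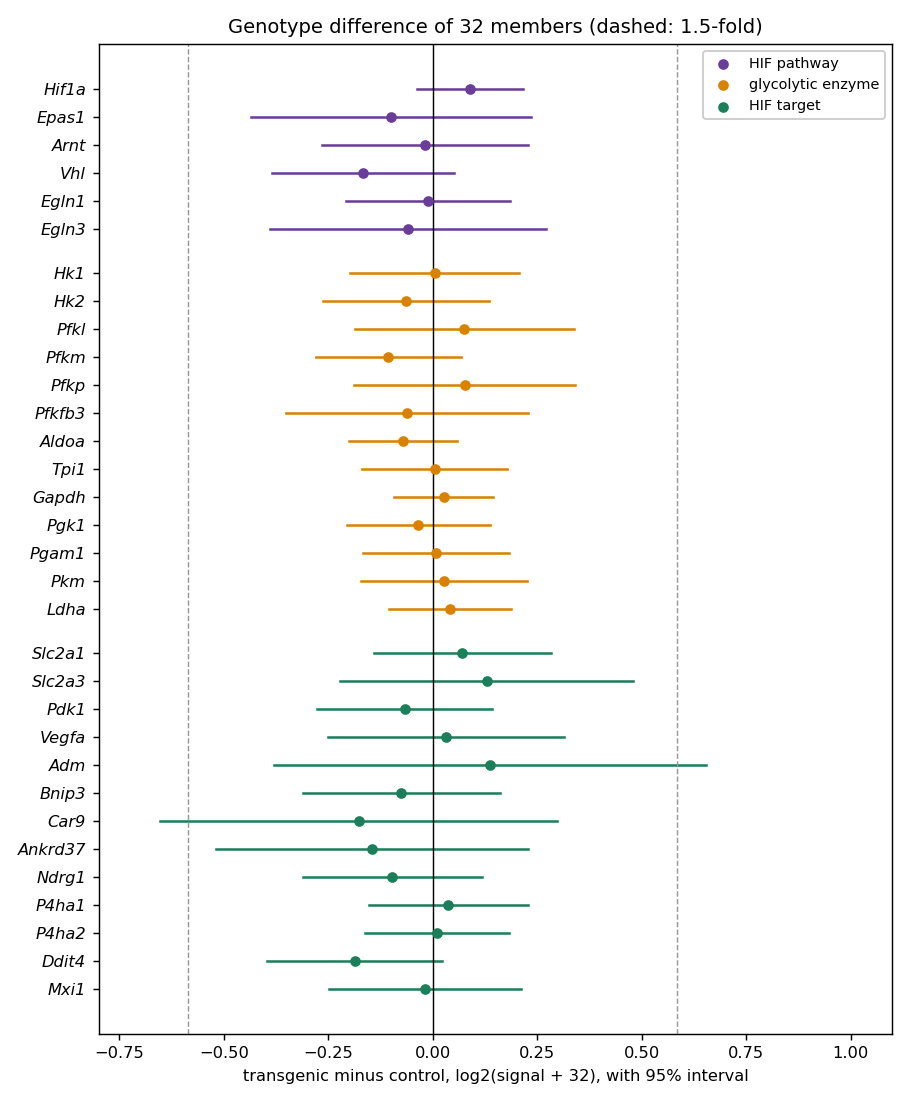
Log2 difference of each of the 32 members, transgenic minus control, with its 95% interval from limma, ordered by class; dashed lines mark a 1.5-fold change. All the intervals span 0, and the widest belong to Adm and Car9.

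The HIF pathway class holds the sensors and the transcription factor itself. Of its 6 members 1 was higher and 5 lower in pools labelled transgenic, with a median log2 difference of -0.04 (-0.0028 without litter 4) and 0 past the test. Hif1a, the oxygen-regulated alpha subunit, read 8517, 7745, 8229 and 8466 in pools labelled transgenic and 7809, 7648, 7368 and 8143 in control pools. The pool labelled transgenic was the brighter in all 4 litters, but the ranges overlapped. The difference was 0.09 on the log2 scale (95% interval -0.04 to 0.22, limma adjusted p = 0.9997), with means of 8239 ± 352 in pools labelled transgenic and 7742 ± 323 in control pools (SD, n = 4 each).

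Vhl, whose protein recognises hydroxylated HIF alpha, read 961, 718, 800 and 755 in pools labelled transgenic and 979, 845, 911 and 894 in control pools. It was dimmer in the pool labelled transgenic in all 4 litters, by a log2 difference of -0.17 (95% interval -0.38 to 0.05, limma adjusted p = 0.9997). Egln3, a prolyl hydroxylase that is itself a HIF target, read 1024, 755, 781 and 622 in pools labelled transgenic and 1078, 783, 790 and 669 in control pools. It too was lower in the pool labelled transgenic of each litter, by small steps, and the log2 difference was -0.06 (95% interval -0.39 to 0.27). Egln1, the main oxygen-sensing hydroxylase, read 1890, 1785, 1642 and 1670 in pools labelled transgenic, beside 2025, 1743, 1510 and 1792 in control pools, a log2 difference of -0.01. Epas1, the HIF-2 alpha subunit, read 359, 598, 659 and 476 in pools labelled transgenic and 493, 524, 579 and 606 in control pools. Its lowest and highest signals were both in pools labelled transgenic, and the log2 difference was -0.10 (95% interval -0.44 to 0.24). Arnt, the constant partner of both alpha subunits, had a log2 difference of -0.02.

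Of the 13 measured glycolytic enzymes 8 were higher and 5 lower in pools labelled transgenic, with a median log2 difference of 0.00 (-0.02 without litter 4) and 0 past the test. The intervals of the class reached no farther than -0.35 and 0.34. Pfkm, the muscle-type phosphofructokinase, read 1926, 1783, 1770 and 1649 in pools labelled transgenic and 2022, 2069, 1874 and 1727 in control pools. Among the enzymes Pfkm alone kept its direction in every litter, on a background of 13.4% of probe sets, and its log2 difference was -0.11 (95% interval -0.28 to 0.07, limma adjusted p = 0.9997). Among the 32 members 5 did so: Hif1a higher, and Vhl, Egln3, Pfkm and Ddit4 lower in pools labelled transgenic.

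Aldoa, the aldolase that splits fructose bisphosphate, read 13058, 13126, 11908 and 12411 in pools labelled transgenic and 14183, 13246, 13324 and 12358 in control pools. The ranges overlapped, with a log2 difference of -0.07 (95% interval -0.20 to 0.06). Hk2, the inducible hexokinase that commits glucose to the pathway, read 2326, 2110, 2060 and 1908 in pools labelled transgenic and 2602, 2044, 2168 and 2009 in control pools. Its log2 difference was -0.06 (95% interval -0.26 to 0.13). Gapdh, which carries out the oxidation step, read 33559, 33290, 31978 and 35037 in pools labelled transgenic and 35093, 31777, 33657 and 31062 in control pools. This gave the narrowest interval of the enzymes named, with a log2 difference of 0.03 (95% interval -0.09 to 0.14). The remaining enzymes had log2 differences between -0.06 (Pfkfb3) and 0.08 (Pfkp and Pfkl). The X-linked Pgk1, phosphoglycerate kinase, was at -0.03.

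The HIF targets carry glucose in, divert pyruvate, signal to vessels, buffer pH and modify collagen. Of the 13 measured targets 6 were higher and 7 lower in pools labelled transgenic, with a median log2 difference of -0.02 and 0 past the test. Without litter 4 that median was -0.07, with 0 of 13 past the test at an unadjusted p under 0.05. Ddit4, an inhibitor of mTOR signalling, had the lowest unadjusted p of the members. It read 2722, 2650, 2316 and 2537 in pools labelled transgenic and 3182, 3265, 2366 and 2916 in control pools. All 4 litters had the lower signal in the pool labelled transgenic, but the ranges overlapped, because the litter 3 control pool read below 3 of the pools labelled transgenic. The log2 difference was -0.19 (95% interval -0.40 to 0.02, limma unadjusted p = 0.0761, adjusted p = 0.9997). With the litter as a block the limma unadjusted p was 0.0112 and the adjusted p 0.839, on a background of 5.54% of probe sets under an unadjusted 0.05.

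Slc2a1, the glucose transporter GLUT1, read 11890, 8950, 9186 and 9781 in pools labelled transgenic and 11217, 8649, 9333 and 8686 in control pools. The higher signal was in the pool labelled transgenic in 3 of 4 litters, with a log2 difference of 0.07 (95% interval -0.14 to 0.28, limma adjusted p = 0.9997). Vegfa, the vessel growth factor, read 1500, 1337, 1172 and 1090 in pools labelled transgenic and 1582, 1216, 1232 and 989 in control pools. Its direction was divided evenly among the litters, and the log2 difference was 0.03 (95% interval -0.25 to 0.31). Bnip3, a mitochondrial protein that promotes mitophagy, read 13947, 11096, 9668 and 10750 in pools labelled transgenic and 14419, 11210, 11556 and 10626 in control pools, a log2 difference of -0.08 (95% interval -0.31 to 0.16).

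Ndrg1, a stress-response gene, read 1064, 1002, 981 and 902 in pools labelled transgenic and 1046, 1213, 1099 and 893 in control pools. Ankrd37, an ankyrin repeat gene, read 218, 117, 167 and 147 in pools labelled transgenic and 185, 175, 166 and 191 in control pools. The ranges of both overlapped, with log2 differences of -0.10 (95% interval -0.31 to 0.12) for Ndrg1 and -0.15 (95% interval -0.52 to 0.23) for Ankrd37. The widest intervals were those of dim or variable probe sets. Adm, the vasodilator adrenomedullin, had a log2 difference of 0.14 (95% interval -0.38 to 0.65). Car9, a membrane carbonic anhydrase, stood at -0.18 (95% interval -0.65 to 0.30). Differences within those intervals were not excluded for Adm and Car9. The collagen prolyl hydroxylase subunits P4ha1 and P4ha2, which need oxygen and let collagen fold, had log2 differences of 0.04 and 0.01.

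The second and further probe sets of the members gave a check on the choice of the brightest. There were 38 tested, of 21 genes, and 25 of them had the sign of the brightest. At an adjusted p under 0.05 limma called 0 of 38, and at an unadjusted p under 0.05 it called 2, on the background of 3.29%. With the litter as a block it called 4 at an unadjusted p under 0.05, on the background of 5.54%, and 0 at an adjusted one: the same Pfkp and Aldoa probe sets, the second of Egln1 (limma unadjusted p = 0.00526) and the third of Hif1a (limma unadjusted p = 0.0452). Of the 2 called without the block, the second Pfkp probe set (platelet-type phosphofructokinase) read 239, 209, 225 and 157 in pools labelled transgenic and 278, 309, 244 and 316 in control pools. The genotypes did not overlap there, with a log2 difference of -0.42 (95% interval -0.74 to -0.10, limma adjusted p = 0.9997), while the brightest Pfkp probe set was at 0.08. The fifth Aldoa probe set read 2365, 2259, 2422 and 2563 in pools labelled transgenic and 2861, 2804, 2490 and 2695 in control pools, where the genotypes overlapped and the log2 difference was -0.17. The third Hif1a probe set read 1216, 1146, 1061 and 1024 in pools labelled transgenic, all above the 991, 945, 1008 and 978 of control pools. Its log2 difference was 0.17 (95% interval -0.00435 to 0.35, limma adjusted p = 0.9997), in the direction of the brightest. The second Arnt probe set was likewise without overlap, at 1004 to 1040 in pools labelled transgenic against 830 to 955 in control pools, opposite in sign to the brightest Arnt probe set. Of the 38 probe sets 3 were without overlap, on a background of 2.27% of all tested probe sets. The second Egln1 probe set read 775, 636, 772 and 479 in pools labelled transgenic and 950, 896, 861 and 590 in control pools, lower in the pool labelled transgenic of each litter (log2 difference -0.30, 95% interval -0.65 to 0.05). Those probe sets were picked out after their values were seen.

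Some marker genes had a smaller p between the genotypes than any member. Of 4 tested Y-linked and Xist genes, all 4 had an unadjusted limma p under 0.05, on the background of 3.29%, and 0 an adjusted one. Eif2s3y, a male transcript of the Y chromosome, read 1178, 1128, 1100 and 813 in pools labelled transgenic and 616, 772, 358 and 486 in control pools. It was higher in the pool labelled transgenic of each litter, but the other genes of that list did not differ evenly over the litters. In litter 4 Kdm5d read 475 in the pool labelled transgenic and 470 in the control pool, and Uty read 432 and 384. Xist read 79.8, 3266, 47.2 and 8209 in pools labelled transgenic and 5778, 9946, 13760 and 8098 in control pools. The endothelial cadherin gene Cdh5 read 140, 165, 159 and 147 in pools labelled transgenic and 189, 252, 261 and 304 in control pools, without overlap. It was picked for its values: of 9 tested endothelial genes 3 were higher and 6 lower in pools labelled transgenic. Alpl, the alkaline phosphatase gene of mineralizing cells, read 710, 721, 711 and 835 in pools labelled transgenic and 929, 987, 855 and 957 in control pools, also without overlap. It too was picked for its values, from 4 tested osteoblast genes of which 1 was higher and 3 lower. Of all tested probe sets 2.27% were without overlap. All 3 tested erythroid genes were lower in the pool labelled transgenic of each litter, with a median log2 difference of -0.28. Of all tested probe sets 13.4% kept 1 direction in all 4 litters. With the litter as a block Alas2 had a limma unadjusted p of 0.00138 and Hbb-b2 one of 0.00227, on a background of 5.54% of probe sets under an unadjusted 0.05. Of the 3 genes 0 had an adjusted p under 0.05 in that fit. The summed signal of 6 erythroid markers overlapped, at 5410 to 10795 in pools labelled transgenic and 6556 to 13785 in control pools. That of 10 endothelial markers overlapped too, at 1673 to 2679 in pools labelled transgenic and 2117 to 2809 in control pools, as did that of 10 muscle markers, at 27318 to 39317 in pools labelled transgenic and 29492 to 42910 in control pools. The sex and the other cells of the pools stood beside the genotype comparison, and their part in the values of the members was not tested.

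In limma, more members had an unadjusted p under 0.05 between litters than between genotypes. How much of the variation each accounts for was not tested. A second limma test asked, with the genotype in the fit, whether the 4 litters differed. Pools of a litter share their dam, and whether they share dissection and handling is not stated. Between litters 19 of 32 members had an unadjusted p under 0.05, on a background of 14.6% of all tested probe sets and 20.2% of the brightest 25% of probe sets. By class these were 2 of 6 HIF pathway genes, 9 of 13 glycolytic enzymes and 8 of 13 HIF targets. At an adjusted p under 0.05 limma called 0 of 32 members, on a background of 0.484%, the lowest being 0.0674 for Egln3 and Bnip3. In all 19 members litter 1 had the highest mean of the 4 litters, a pattern that 3.91% of all tested probe sets shared.

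**Figure D2:**
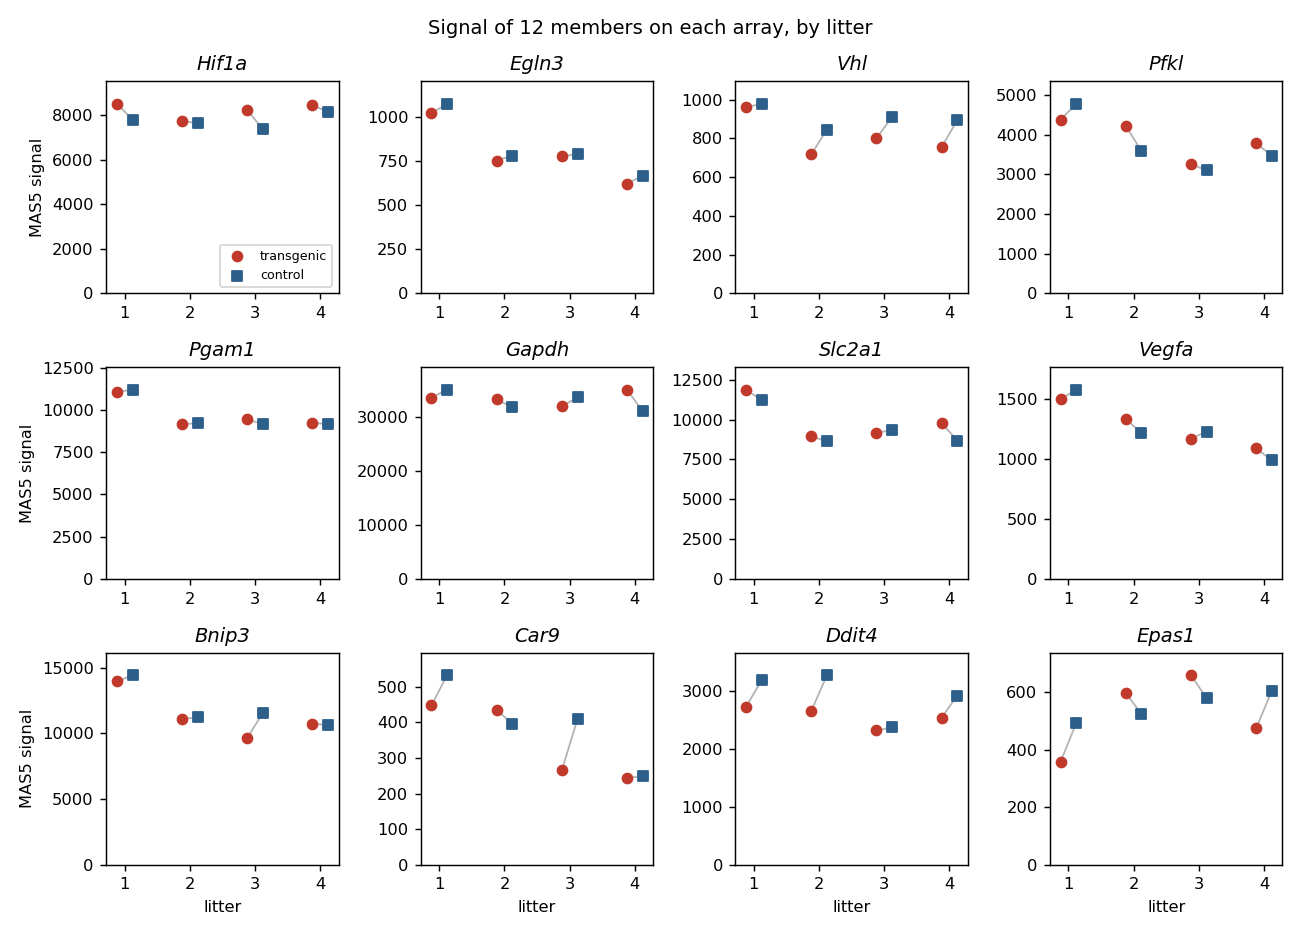
MAS5 signal of 12 members by litter, with 1 point per array and a panel per gene. In Egln3, Pfkl, Pgam1, Slc2a1, Vegfa, Bnip3 and Car9 both arrays of litter 1 are the highest, whereas Gapdh and Hif1a show no such step and Epas1 is lowest in litter 1 in both groups.

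Litter 1 was singled out after these values were seen. Its mean was the highest of the 4 litters in 26 of 32 members, beside 23.6% of all tested probe sets, and was highest in 4 of 6 HIF pathway genes, 12 of 13 enzymes and 10 of 13 targets. In 19 of 32 members both litter 1 arrays lay above all 6 others, beside 5.8% of all tested probe sets. They were not the same 19 as those with an unadjusted limma p under 0.05 between litters. Vhl and Pdk1 were in this set alone, and Pgk1 and Ddit4 in the other alone. In control pools Pgk1 read 30016 in litter 1 and 31992 in litter 3, and Ddit4 read 3182 in litter 1 and 3265 in litter 2. The median log2 difference of litter 1 over the other litters was 0.23 across members, or 1.17-fold, and 0.18, 0.26 and 0.24 in the HIF pathway, enzyme and target classes. Over all tested probe sets that median was -0.02, and over the brightest 25% of probe sets 0.01. The step was seen in both genotypes. In the litter 1 pool labelled transgenic 28 of 32 members lay above their own mean over the arrays, and in the litter 1 control pool 29 did, while in the 6 other pools 5 to 14 did.

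**Figure D3:**
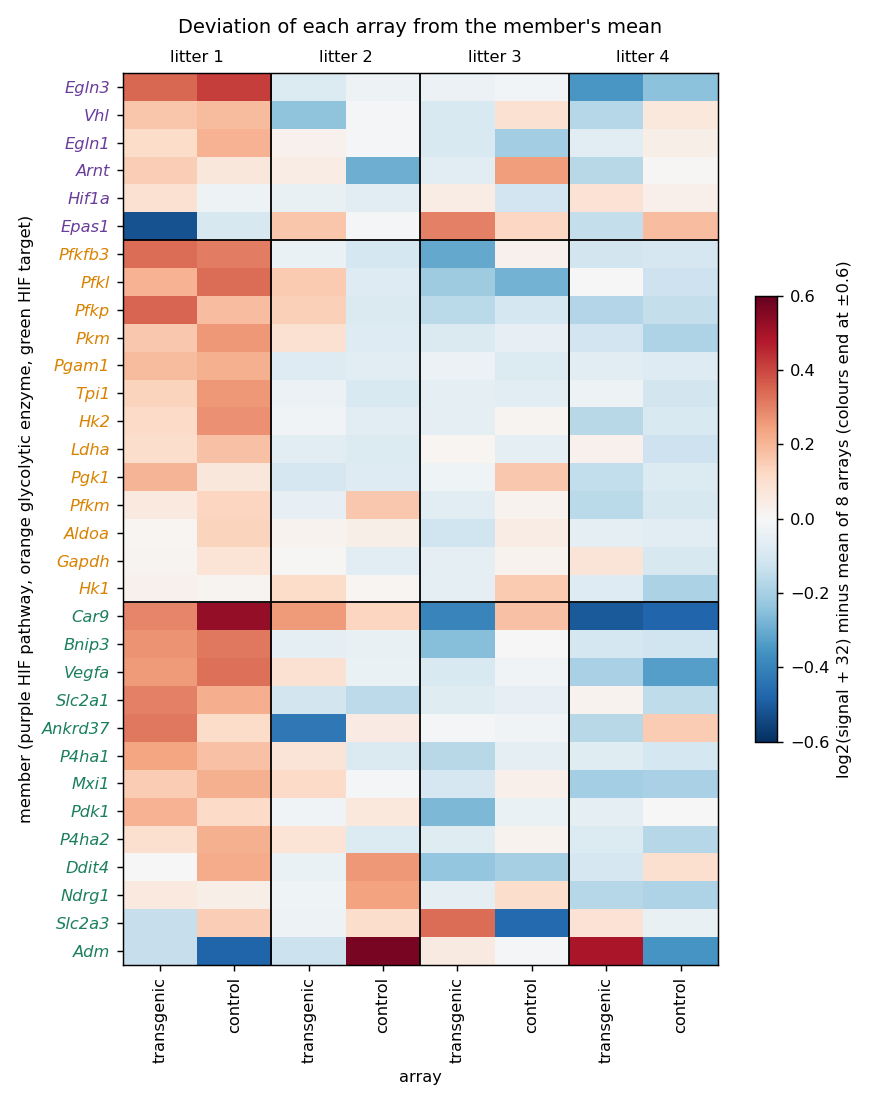
Heat map of the deviation of each of the 32 members (rows, by class) from its own mean over the 8 arrays, in log2(signal + 32), with an array per column and red above the mean. Both litter 1 columns are mostly red: the median deviations there are 0.15 in the pool labelled transgenic and 0.19 in the control pool, and those of the other 6 arrays lie between -0.10 and -0.02.

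The count rested on litter 1. Without its 2 arrays 4 of 32 members had an unadjusted limma p under 0.05 among the remaining litters, with 9.33% of all tested probe sets. Without its pool labelled transgenic alone the count was 13, and without its control pool alone 11. Over the fits that left out arrays or litters, 9.33% to 17.4% of all tested probe sets had such a p. Without litter 3, 4 members passed the adjusted threshold in limma, on a background of 1.26% of all tested probe sets: Egln3 (adjusted p = 0.0332), Slc2a1 (adjusted p = 0.0378), Bnip3 (adjusted p = 0.0284) and Car9 (adjusted p = 0.0419). Fitted without an intensity trend in the variance, the unadjusted count was 8 of 32, and the share of all tested probe sets lay between 9.33% and 17.4% there too.

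The promoters of 5 members with low p between litters are shown. They are not the 5 lowest: Vegfa and Car9 (limma unadjusted p = 0.0017 and 0.0025) lay below Pgam1 (limma unadjusted p = 0.00317) and are not printed. HIF binds DNA at a short core, spelled ACGTG or GCGTG, and the 5 printed windows show how it is placed in genes of the same litter pattern. They are RefSeq sequences of GRCm38.p6, the 250 bases before each gene's start, 5′ to 3′ along the gene's strand, with the core, read on both strands, in capitals. A palindromic copy holds the core on both strands and counts on each. The windows are chr12:54203875-54204124 on the minus strand for Egln3, chr10:78009808-78010057 on the minus strand for Pfkl, chr19:41911621-41911870 on the plus strand for Pgam1, chr7:138909507-138909756 on the minus strand for Bnip3 and chr4:119108495-119108744 on the plus strand for Slc2a1.
Egln3: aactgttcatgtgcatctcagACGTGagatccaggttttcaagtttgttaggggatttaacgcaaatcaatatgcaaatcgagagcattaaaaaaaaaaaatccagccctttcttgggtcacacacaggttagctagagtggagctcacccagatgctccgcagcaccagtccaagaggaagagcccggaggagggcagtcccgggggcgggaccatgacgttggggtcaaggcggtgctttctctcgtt
Pfkl: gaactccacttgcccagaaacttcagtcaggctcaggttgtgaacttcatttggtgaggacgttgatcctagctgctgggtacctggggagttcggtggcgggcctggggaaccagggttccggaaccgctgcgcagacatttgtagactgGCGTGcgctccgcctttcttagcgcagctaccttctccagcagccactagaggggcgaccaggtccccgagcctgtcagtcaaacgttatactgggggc
Pgam1: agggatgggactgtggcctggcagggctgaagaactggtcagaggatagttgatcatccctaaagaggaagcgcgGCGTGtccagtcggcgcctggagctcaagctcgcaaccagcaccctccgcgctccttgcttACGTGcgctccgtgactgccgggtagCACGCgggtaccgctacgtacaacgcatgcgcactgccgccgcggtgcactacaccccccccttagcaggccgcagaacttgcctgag
Bnip3: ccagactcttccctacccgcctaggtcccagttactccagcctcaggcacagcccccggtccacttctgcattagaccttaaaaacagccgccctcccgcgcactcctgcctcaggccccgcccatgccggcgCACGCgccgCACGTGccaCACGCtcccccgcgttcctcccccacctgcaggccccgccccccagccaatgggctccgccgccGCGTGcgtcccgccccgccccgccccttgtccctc
Slc2a1: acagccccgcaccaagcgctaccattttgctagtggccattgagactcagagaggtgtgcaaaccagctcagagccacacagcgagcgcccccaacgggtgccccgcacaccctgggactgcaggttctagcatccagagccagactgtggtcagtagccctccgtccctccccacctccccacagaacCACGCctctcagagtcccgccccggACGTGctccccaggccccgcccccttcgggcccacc

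The core stood once in the Egln3 and Pfkl windows, and the Bnip3 window held 5 copies, a palindrome among them that counts on each strand. Pgam1 held 3 and Slc2a1 held 2. Promoters were found for 31 members, 46 windows in all, and 36 of the windows (78.3%) held the core, beside 38.6% of 32851 promoters in the table. The members' windows were richer in CpG, with a median of 14 CpG sites against 6, and the core itself contains a CpG. Among the 9646 promoters with at least 14 CpG sites 67.3% held it. Their median of 22 CpG sites was above that of the members' windows, so those 2 sets were not matched in CpG. Some members had several windows, which overlapped in Aldoa and Eno1, and the windows include Eno1 and Gpi1, which had no array value. By class the core was in 4 of 5 HIF pathway windows, 20 of 26 enzyme windows and 12 of 15 target windows. A match describes the letters only, and its absence, as in Tpi1 and in a window each of Vegfa and Pkm, says nothing of binding.

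Among the sensors, Egln3 read 1024 in the litter 1 pool labelled transgenic and 1078 in the control pool, and 622 to 790 in the 6 other pools. Litter 1 was 1.42-fold the other litters in the mean of log2 values, with a limma adjusted p of 0.0674. Egln1 was 1.16-fold (limma unadjusted p = 0.0483, adjusted p = 0.338). Vhl was 1.18-fold, with both litter 1 arrays above the other 6, but its limma unadjusted p was 0.097. In their brightest probe sets the alpha subunits did not share the step: Hif1a in litter 1 was 1.03-fold the other litters, and Epas1 was 0.752-fold (limma adjusted p = 0.362). The further Hif1a probe sets were divided. Litter 1 had the highest mean in the second, at 1.119-fold (limma unadjusted p = 0.0515), and in the third, at 1.069-fold (limma unadjusted p = 0.698). In the fourth Hif1a probe set litter 1 had the lowest mean, at 0.788-fold (limma unadjusted p = 0.155).

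In the glycolytic class, Pfkl, the liver-type phosphofructokinase, read 4385 in the litter 1 pool labelled transgenic and 4782 in the litter 1 control pool. The other pools read 4221, 3257 and 3785 where labelled transgenic and 3590, 3104 and 3468 in controls, so litter 1 led in each genotype, by 1.29-fold over the other litters (limma adjusted p = 0.0796). Pgam1, the phosphoglycerate mutase, read 11047 in the litter 1 pool labelled transgenic and 11207 in the control pool, with 9148 to 9444 in the 6 other pools. Litter 1 was 1.21-fold the other litters (limma adjusted p = 0.129), and the other 3 litters were nearly level. Pfkfb3, which makes the activator of phosphofructokinase, was 1.35-fold in litter 1, Pfkp 1.28-fold, Pkm, the pyruvate kinase of the last energy-yielding step, 1.22-fold, and Tpi1, triose phosphate isomerase, 1.20-fold. Ldha, which turns pyruvate to lactate, was 1.14-fold and Pgk1 1.13-fold. Each of these had an unadjusted limma p under 0.05 between litters and no adjusted one. Gapdh at 1.05-fold, Hk1 at 1.02-fold and Aldoa at 1.07-fold were the enzymes nearest to level.

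Of the targets, Car9 showed the largest step of the 32 members, at 448 in the litter 1 pool labelled transgenic and 533 in the litter 1 control pool, with 244 to 435 in the 6 others, 1.46-fold (limma adjusted p = 0.117). Bnip3 read 13947 in the litter 1 pool labelled transgenic and 14419 in the control pool, above 9668 to 11556 elsewhere, and was 1.31-fold. Slc2a1 read 11890 in the litter 1 pool labelled transgenic and 11217 in the control pool, above 8649 to 9781 elsewhere, and was 1.27-fold (limma adjusted p = 0.0733). Vegfa was 1.31-fold (limma adjusted p = 0.102), and its lowest arrays in both genotypes were those of litter 4. P4ha1 was 1.21-fold and P4ha2 1.15-fold. Mxi1, a MYC antagonist, was 1.18-fold. Pdk1, which closes pyruvate's way into mitochondria, was 1.16-fold, with a limma unadjusted p of 0.0612. Slc2a3, the transporter GLUT3, was level at 1.01-fold, and Adm was lowest in litter 1, at 0.752-fold (limma unadjusted p = 0.476).

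**Figure D4:**
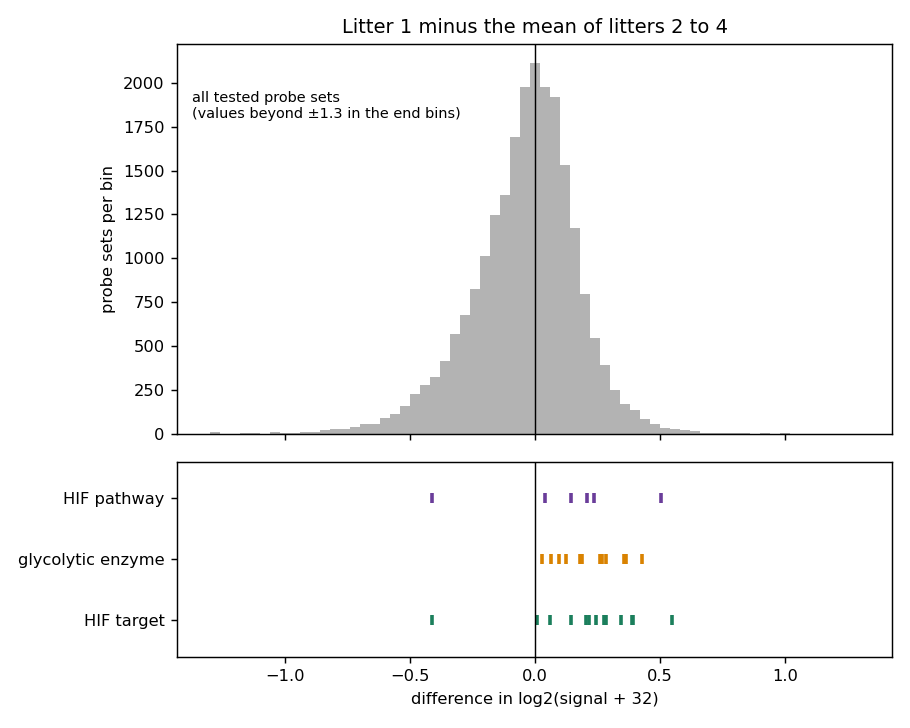
Log2 difference of litter 1 over the mean of the other 3 litters for the 32 members, set against the distribution over all 22525 tested probe sets. The members have a median of 0.23 and run from -0.41 (Adm, Epas1) to 0.55 (Car9), and the tested probe sets have a median of -0.02.

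Among the further probe sets of members 13 of 38 had an unadjusted limma p under 0.05 between litters, on the background of 14.6%, and litter 1 had the highest mean in 26 of 38, beside 23.6% of all tested probe sets. The second Slc2a1 probe set and the third Aldoa probe set passed at an adjusted p under 0.05. For Slc2a1 it read 5820 in the litter 1 pool labelled transgenic and 6068 in the litter 1 control pool, against 4103 to 4657 in the other 6 pools (limma adjusted p = 0.0481, 1.34-fold). For Aldoa it read 9982 in the litter 1 pool labelled transgenic and 9913 in the litter 1 control pool, against 6986 to 8790 in the other pools (limma adjusted p = 0.0462, 1.27-fold), while the brightest Aldoa probe set was near level. The 3 Gapdh probe sets each had an unadjusted limma p above 0.05 between litters, the lowest being 0.214.

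Further pathway genes were read from lists drawn up beside the members. Between genotypes 0 tested genes in each of the 4 lists had an unadjusted limma p under 0.05, on the background of 3.29%. With the litter as a block Slc16a3 and Dlat did, on the background of 5.54%, and 0 genes had an adjusted one. Of 11 genes of HIF regulation, 8 were higher and 3 lower in pools labelled transgenic. Of 12 other glycolytic and lactate genes, 4 were higher and 8 lower, of 19 other HIF targets 14 and 5, and of 15 genes of pyruvate oxidation and the citrate cycle 6 and 9. The monocarboxylate exporter gene Slc16a3 came nearest, at 897, 1229, 574 and 1034 in pools labelled transgenic and 837, 635, 586 and 690 in control pools. The ranges overlapped, with a log2 difference of 0.39 (95% interval -0.00791 to 0.78, limma unadjusted p = 0.0541). With the block the interval was 0.09 to 0.68 (limma unadjusted p = 0.0152, adjusted p = 0.839). Dlat, a subunit of pyruvate dehydrogenase, was lower in the pool labelled transgenic in all 4 litters, at -0.19 (limma unadjusted p = 0.0716). With the block its interval was -0.37 to -0.02 (limma unadjusted p = 0.0301, adjusted p = 0.889). Siah2, a ubiquitin ligase that acts on prolyl hydroxylases, was at 0.24 and the chemokine receptor gene Cxcr4 at 0.41, with unadjusted limma p of 0.132 and 0.159.

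Between litters the other HIF targets had 9 of 19 with an unadjusted limma p under 0.05, on the background of 14.6%, and 2 with an adjusted one, on the background of 0.484%. Fam162a, a hypoxia-induced mitochondrial gene, read 15411 in the litter 1 pool labelled transgenic and 15829 in the control pool, against 10832 to 12002 in the other pools (1.37-fold, limma adjusted p = 0.0139). Stc2, a secreted glycoprotein gene, read 1550 in the litter 1 pool labelled transgenic and 1913 in the control pool, against 857 to 1083 in the others (1.72-fold, limma adjusted p = 0.0481). Both therefore differed between litters, with litter 1 highest in both genotypes. Litter 1 was highest in 10 of those 19, in 5 of 12 other glycolytic and lactate genes, in 2 of 11 genes of HIF regulation and in 5 of 15 genes of pyruvate oxidation and the citrate cycle, beside 23.6% of all tested probe sets. The counts of HIF regulation and of the citrate cycle were near that share. Not all targets went the same way: Lox, the lysyl oxidase gene, stood at -0.39 in litter 1 against the others on the log2 scale and the chemokine gene Cxcl12 at -0.40. In the glycolytic list the muscle isoforms Pgam2 and Eno3 stood at -0.76 and -0.50, whereas Aldoc, the brain-type aldolase, was 1.35-fold (limma adjusted p = 0.0669). The median step of the citrate cycle list was 0.03.

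Marker signals of other cells moved with the litters too. The summed signal of 10 skeletal muscle markers was 27318 in the litter 1 pool labelled transgenic and 29492 in the litter 1 control pool, below the 29936 to 42910 of the other 6 pools. Litter 1 had the lowest mean in 9 of 10 of them, beside 32.1% of all tested probe sets, and 6 of these 9 had an unadjusted limma p under 0.05 between litters, on the background of 14.6%. The exception was Tnnt3, a troponin gene, at 7628 in the litter 1 pool labelled transgenic and 9179 in the litter 1 control pool, above the other 6, with 1.23-fold in litter 1 (limma unadjusted p = 0.0398). The 6 erythroid markers on the array summed to 5410 in the litter 1 pool labelled transgenic and 6556 in the control pool, against 7085 to 13785 elsewhere. In all 3 that were bright enough to be tested litter 1 had the lowest mean, beside the same 32.1%. The erythroid genes Alas2 (limma adjusted p = 0.00327) and Hbb-b2 (limma adjusted p = 0.00249) differed between litters. Macrophage markers summed to 1017 in the litter 1 pool labelled transgenic and 1112 in the control pool, against 1185 to 2305 elsewhere, and litter 1 had the lowest mean in 3 of 5 tested, again beside 32.1%. The osteoblast list as a whole showed no step, with a median log2 difference of -0.00727 in litter 1. Its sum of 21186 in the litter 1 pool labelled transgenic and 22701 in the control pool, against 24135 to 33439 elsewhere, was mostly Col1a1, the type I collagen gene, at 0.776-fold in litter 1, while Ibsp was 1.09-fold, Sp7 1.02-fold and Alpl 0.971-fold.

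**Figure D5:**
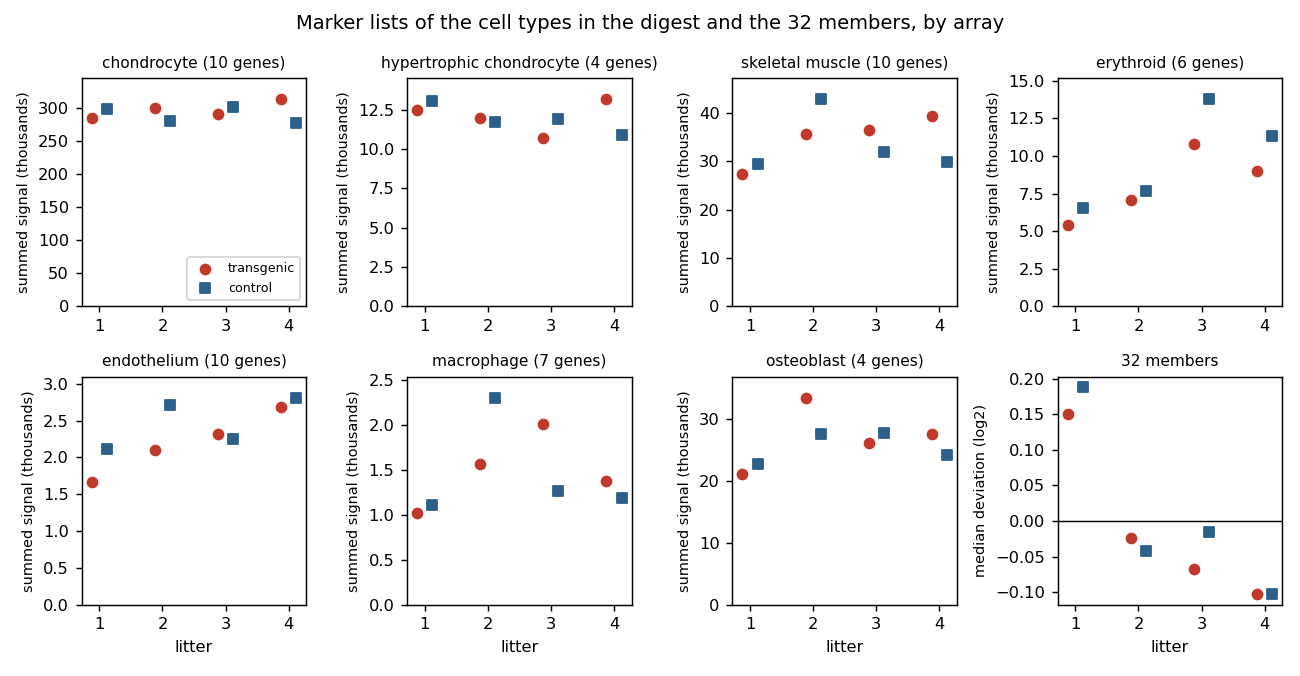
Summed MAS5 signal of each cell type's markers by litter, with 1 point per array, and in the last panel the median deviation of the 32 members. The muscle, erythroid and macrophage sums of both litter 1 arrays lie below those of the other 6 arrays, as does the osteoblast sum, which is mostly Col1a1, and the chondrocyte sums overlap.

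The chondrocyte sum did not separate litter 1, at 285001 in the pool labelled transgenic and 298551 in the control pool, within the 276194 to 312987 of the other pools. The 4 hypertrophic markers measured summed to 12497 in the litter 1 pool labelled transgenic and 13085 in the control pool, within 10720 to 13173. Endothelial markers summed to 1673 in the litter 1 pool labelled transgenic and 2117 in the litter 1 control pool, the lowest of each genotype, though the control value lay within the 2096 to 2809 of the other 6 pools. Litter 1 had the lowest mean in 7 of 9 tested endothelial genes, beside 32.1% of all tested probe sets, with a median log2 difference of -0.30. No marker of these lists was listed at 0 on any array. In bulk RNA, fewer cells of a type and less RNA per cell cannot be told apart. RNA quality, read as the signal ratio of the 3′ to the 5′ Gapdh probe set, was 0.732 in the litter 1 pool labelled transgenic and 0.731 in the litter 1 control pool, within the 0.698 to 0.778 of the other 6. The part of the other cells in the litter 1 values of the members was not tested, and the dam, the dissection and the handling of a litter cannot be told apart.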

How the data were processed

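RNA of 8 pools was measured on 1-colour Affymetrix arrays, 1 per pool. What the authors deposited is 1 linear intensity for each probe set and array, computed with MAS5 according to the submitters' processing notes, which give no version. MAS5 subtracts mismatch signal, which leaves dim probe sets noisy. Array number, 4 per group, limits the precision: the 95% interval of a member reached 0.211 (log2) to either side at the median.

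Of 45101 probe sets, 64 were manufacturer's controls, and the 13 of these annotated to a single mouse gene were kept. Values became log2(signal + 32), 32 being the typical 25th percentile of an array's signals, which makes fold changes of dim genes smaller. Probe sets with a mean above the median, 22525, were tested with lmFit and eBayes with trend (limma 3.58.1, statmod 1.5.0, R 4.3.3), two-sided, with Benjamini-Hochberg adjustment over all of them. One fit had the genotype alone, and a moderated F test in a fit with genotype and litter compared litters. Plots used Python 3.11.15 and matplotlib 3.10.9. Gene names came from GEO's platform annotation: 34958 probe sets had 1 symbol, 932 several and 9160 none.

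The members and lists were chosen with earlier results of these data known. Named in full were, per class, the 3 members with the smallest p between genotypes and the 2 with the smallest between litters, plus Hif1a, Epas1, Slc2a1, Vegfa and Gapdh, and from each list of other pathway genes those with the smallest p. Members and list genes named beyond that rule were picked for their values.

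The series' design text says that embryos of 4 litters were grouped by genotype, and the sample descriptions carry 1 number per litter that is shared by a transgenic and a control pool, so arrays of a litter are paired. Their deviations from the group means correlated at 0.28, 0.17, 0.04 and 0.14 in litters 1 to 4, with a mean of 0.16 against -0.05 between litters. The labels name no test, so the fit without a block was used and litter blocks were alternatives, with other constants, filters, normalization, variance priors, probe set choices and arrays left out.

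On simulated data, 10 sets with 200 of 22525 probe sets changed, the genotype test recovered 7.6%, 47%, 83.2% and 97.6% of 1.25-fold, 1.5-fold, 2-fold and 3-fold changes. The litter test, with litter 1 changed, recovered 1.8%, 21.2%, 59.6% and 88.2%.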

Additional observations from a re-analysis of the deposited data

Results flagged for a closer look

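In 6 of 64 groups of 4 arrays tested, 1 array stood so far from the other 3 that the gap passed Dixon's critical value for 4 values, which chance passes in about 1 of 20 groups; all 6 were the highest array, and all were of litter 1. Pgam1 read 11047 in the litter 1 pool labelled transgenic, with 9164 to 9444 in the other pools labelled transgenic, and 11207 in the litter 1 control pool, with 9148 to 9212 in the other control pools. Tpi1 read 20529 in the litter 1 pool labelled transgenic, with 17931 to 18282 in the others of that label, and 22388 in the litter 1 control pool, with 17293 to 17857 in the other control pools. Among control pools alone, Pfkp read 1170 in litter 1, with 927 to 963 in the others, and P4ha1 read 12091 in litter 1, with 9941 to 10285 in the others. The members of a pool share an array and are not independent, so the 6 are not 6 separate events.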

How the results depend on the processing

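No member passed an adjusted p under 0.05 between genotypes in limma under any of the 22 alternatives, and 7 of 17 members named in full (Vhl, Hif1a, Pfkm, Aldoa, Ddit4, Ndrg1, Ankrd37) kept their sign in all alternatives that gave them a value, 22 for each but Aldoa and Ankrd37 with 21. With the litter as a replicate block, fixed or random, 1 member, against 0, had an unadjusted p under 0.05 between genotypes. Of further probe sets of members 4 did with the fixed block, against 2, and Slc16a3 and Dlat did among the other pathway genes; 0 of these had an adjusted p under 0.05. Quantile normalization turned Pgam1 to -0.0082 and Gapdh to -0.0072 on the log2 scale. Between litters, 109 probe sets passed the adjusted threshold, 30 with no filter, 0 with no variance trend and 48 with gene means (added after seeing the data). The members with an unadjusted p under 0.05, 19, came to 8 with no trend, and the cause was not tested. Over the alternatives 9.33% to 17.4% of all tested probe sets had an unadjusted p under 0.05 between litters.

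Leaving out arrays or litters gave 0 to 2 probe sets past the adjusted threshold between genotypes, 0 to 1 members with an unadjusted p under 0.05, 7 to 22 members higher and 10 to 25 lower, and class medians of -0.100 to 0.0284 (HIF pathway), -0.0404 to 0.0572 (enzymes) and -0.0797 to 0.0177 (targets). Between litters it gave 10 to 284 probe sets and 0 to 4 members past the adjusted threshold, and 4 to 20 members with an unadjusted p under 0.05, beside 9.33% to 17.4% of all tested probe sets. Log2 differences that turned sign ran from -0.217 to 0.0573 (Epas1), -0.184 to 0.0684 (Egln3), -0.0836 to 0.0552 (Egln1), -0.114 to 0.0159 (Hk2), -0.00676 to 0.199 (Pfkl), -0.0558 to 0.0788 (Pgam1), -0.178 to 0.0177 (Bnip3), -0.0182 to 0.154 (Slc2a1), -0.0732 to 0.147 (Vegfa) and -0.0237 to 0.0587 (Gapdh). Arrays left out of the litter test singly were added after seeing the data. Dim members, such as Adm, had the widest intervals.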
